A study of Saccharomyces cerevisiae with 9 samples.

Results

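tRNA abundance upon Not1 depletion was measured on 3 of the 9 tRNA microarrays of the series, the abundance arrays, each of which carried the tRNA of Not1 depleted cells in the Cy3 dye and that of the wild-type in the Atto dye. All arrays of that kind were taken, and every probe against a tRNA, 64 probes for 20 amino acids, was summarised by amino acid. The other 6 arrays measured tRNA charging, 3 in Not1 depleted cells and 3 in the wild-type, and they enter below only through their dye for total tRNA. Both budding yeast strains were given as MATa, carried the plant F-box protein gene OsTIR1 under the constitutive ADH1 promoter at URA3, and shared the leu2, trp1 and can1 mutations. The degron strain in addition carried NOT1-AID-Myc6 at its own locus, so that auxin directs Not1 to degradation. These genotypes are those of the sample records, and the paper's strain list gives another mating type, another form of the NOT1 tag and further markers (his3 and ade2). Cells were grown in YPD to an OD600 of 0.8, each biological replicate in a culture of its own. According to the records of the samples, both strains received auxin (1 mM, 15 min), but the methods name ethanol as the treatment of the control. The level of Not1 itself is not measured by these arrays, so depletion could not be checked here.

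Transfer RNAs carry amino acids to the ribosome, where the anticodon of the tRNA pairs with the codon of the mRNA. Most amino acids have several isoacceptors, tRNAs with different anticodons that carry the same amino acid, and yeast mitochondria make a separate set of their own. Not1 is the scaffold of the Ccr4-Not complex, which acts in mRNA deadenylation and, through its Not subunits, in monitoring translation elongation. The study asked how tRNA levels and charging responded to the loss of Not1 and put the question above all for tRNA-Ser. An abundance array gives only relative levels: each value below is the log2 ratio of Cy3 over Atto, Not1 depleted over wild-type, centred on the median tRNA probe of its array. A value above 0 therefore means higher than the median probe, not more tRNA per cell, and in bulk RNA a change in fewer cells and a smaller change in all cells cannot be told apart. The dyes were not swapped on any of the 3 arrays, so a dye effect of a probe cannot be told apart from an effect of the strain.

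The tRNAs on which the results turn are given here with the anticodon in capitals, as the gene sequence without introns and without the CCA end that is added later. They were read from RefSeq's annotation of assembly R64, which held 275 nuclear and 24 mitochondrial tRNA genes. The probe sequences of the arrays and their pairing with single anticodons were not used here. The first 3 are nuclear tRNAs of Asp, Glu and Tyr, which with Gly changed places most between arrays, from chrII:405960-406031 (plus strand, the sequence of 15 of 16 tRNA-Asp genes), chrII:645167-645238 (plus strand, 13 of 14 genes with this anticodon) and chrIV:946312-946400 (plus strand, SUP2, all 8 tRNA-Tyr genes, with 1 intron removed).
tRNA-Asp(GUC): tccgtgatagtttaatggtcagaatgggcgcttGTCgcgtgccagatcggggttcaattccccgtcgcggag
tRNA-Glu(UUC): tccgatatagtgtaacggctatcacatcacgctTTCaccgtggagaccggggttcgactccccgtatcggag
tRNA-Tyr(GUA): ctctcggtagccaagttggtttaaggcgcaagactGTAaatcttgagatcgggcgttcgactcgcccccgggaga

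The next 3 belong to the amino acids that kept their rank, Lys and Ile. They lie at chrIII:151284-151356 (minus strand, 14 of 14 genes with this anticodon), chrIV:359577-359672 (plus strand, 7 of 7 genes, with 1 intron removed) and chrII:197494-197567 (plus strand, 13 of 13 genes).
tRNA-Lys(CUU): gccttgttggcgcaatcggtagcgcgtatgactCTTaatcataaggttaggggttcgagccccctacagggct
tRNA-Lys(UUU): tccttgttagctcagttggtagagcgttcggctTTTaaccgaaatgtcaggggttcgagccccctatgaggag
tRNA-Ile(AAU): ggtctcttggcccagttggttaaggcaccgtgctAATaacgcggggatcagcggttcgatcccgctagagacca

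The last 2 are the mitochondrial tRNA-Met genes, shown because 2 probes named mMet1y and mMet2y held the highest means of all probes. They lie at chrMito:72630-72705 and chrMito:85035-85112, both on the plus strand, and their A+T share was 73.7% and 73.1%. The median A+T share was 67.6% over mitochondrial and 45.2% over nuclear tRNA genes.
mitochondrial tRNA-Met(CAU) Q1: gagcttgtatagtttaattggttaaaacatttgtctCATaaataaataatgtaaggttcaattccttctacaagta
mitochondrial tRNA-Met(CAU) Q2: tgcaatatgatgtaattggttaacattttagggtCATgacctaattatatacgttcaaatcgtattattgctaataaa

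The prefix m of a probe name is not explained in the files. For each of the 20 amino acids, the number of probes with prefix m, 24 in all, equalled the number of mitochondrial tRNA genes of R64. The number of the other 40 probes equalled the number of nuclear anticodons found for 14 of 20 amino acids. No anticodon was found for 8 nuclear genes, all of Leu, so the number for Leu may be too low. The suffix h, which the probes Met1h and Met2h share with the human standards, is not explained either, and both were counted with Met. Before the results, 1 array has to be set apart: the log2 ratios of replicate 2 went against those of replicate 3 across the 64 probes (Pearson r = -0.37) and hardly followed those of replicate 1 (r = 0.068), whereas replicates 1 and 3 followed each other (r = 0.79). These values are from a background correction with an offset of 50. When the background was simply subtracted, replicate 2 had r = 0.65 with replicate 1 and r = 0.27 with replicate 3, so over all 64 probes the opposition depended on that correction. Among the 40 probes without prefix m it did not. There replicate 2 had r = -0.40 with replicate 1 and -0.82 with replicate 3 with the offset of 50. With plain subtraction these values were -0.42 and -0.84. These correlations are across probes that share arrays and dyes, and are a description. The methods state the same dyes for all arrays, so the direction was kept, and the results that rest on replicate 2 are also given without it and with its sign turned.

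Ile and Lys kept their rank on all 3 arrays, where rank 1 is the amino acid with the highest ratio and a rank was called kept when its highest and lowest place differed by at most 3. These were 2 of 20 amino acids (10%), and none held exactly the same place on all 3 arrays. Ile stood at 0.37, 0.09 and 0.02 on replicates 1, 2 and 3, which gave it ranks 10, 9 and 12. Lys stood at -0.03, -0.26 and -0.14, with ranks 15, 14 and 17. Ile therefore stayed near the middle of the order and Lys in its lower part. The other 18 moved by 4 to 17 places, and the median over all 20 was 12 places. Kendall's W, which is 1 for identical orders, was 0.22. For unrelated orders W is on average 1 divided by the number of arrays, which for 3 arrays is above the 0.22 found here. Some ranks stay within 3 places in unrelated orders too. Their share was not computed, so 2 of 20 cannot be read as more than unrelated orders would give.

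With the offset of 50, the order on replicate 2 ran against the other arrays. Across the 20 amino acids, replicates 1 and 3 had a Spearman's rho of 0.67. For replicate 2 it was -0.44 with replicate 1 and -0.73 with replicate 3. With plain subtraction these 2 values were 0.08 and -0.22, with an offset of 0 they were -0.03 and -0.34, and with a loess trend removed 0.06 and -0.11, so that under those settings replicate 2 mostly bore little relation to the order of the others. Without the prefix m probes the opposition remained under both corrections. The 2 values were then -0.41 and -0.70 with the offset of 50, and -0.48 and -0.76 with plain subtraction. Without replicate 2, W was 0.83 and 8 amino acids kept their rank within 3 places (Cys, Glu, Gly, His, Ile, Leu, Lys and Phe). However, 2 arrays leave less room for places to differ, and W for unrelated orders is higher with 2 arrays than with 3. With the sign of replicate 2 turned, 4 kept it (Cys, Glu, Gly and Ile) and W was 0.74. Ile stayed within 3 places when any 1 array was left out and with the sign turned. It moved by 8 places with plain subtraction, by 8 with an offset of 0 and by 6 with loess. Lys stayed within 3 places when any 1 array was left out, with plain subtraction and with an offset of 0. It moved by 6 places with loess and by 10 with the sign turned.

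**Figure D1:**
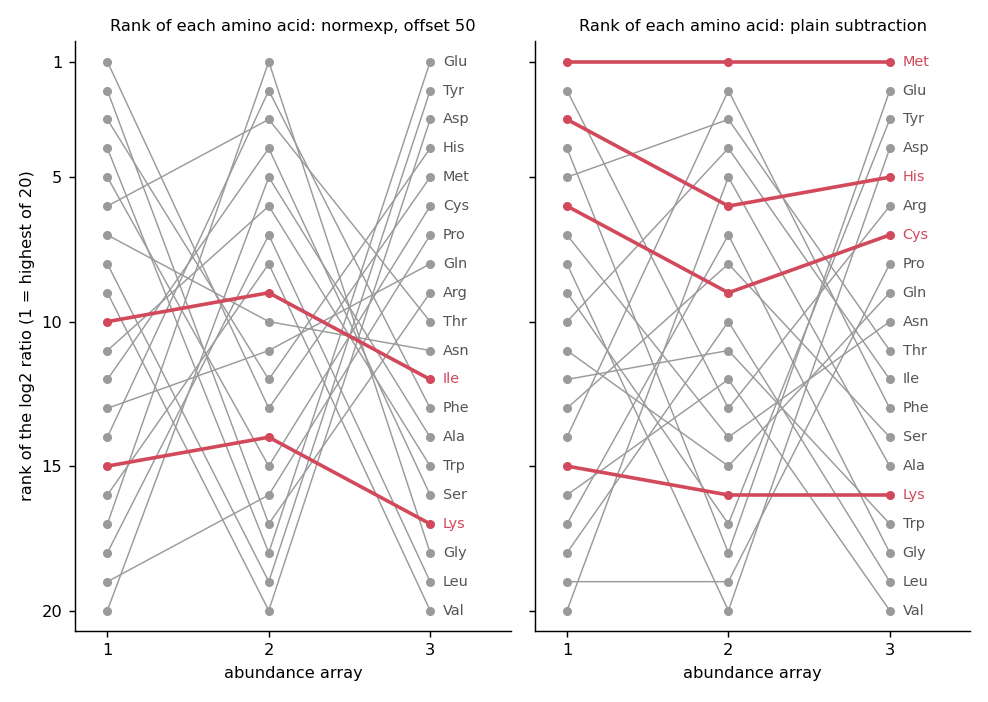
Rank of each of the 20 amino acids by its log2 ratio of Not1 depleted over wild-type (vertical axis, 1 is the highest) on the 3 abundance arrays (horizontal axis), after normexp background correction with an offset of 50 (left) and after plain subtraction of the background (right). Red lines mark amino acids whose ranks differed by at most 3 places, Ile and Lys on the left and Met, His, Cys and Lys on the right, and most grey lines cross between arrays.

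Asn, Ile, Phe and Thr were above the median probe on all 3 arrays and Lys below it, so that 5 of 20 amino acids (25%) shared a direction. If values fell above or below 0 equally often and independently, 25% would also share a direction on 3 arrays. The count of 5 rested on replicate 2: without it 17 of 20 shared a direction, and with its sign turned 12 did. However, 2 arrays share a direction more readily than 3. Thr stood at 0.45, 0.22 and 0.11, Asn at 0.43, 0.06 and 0.11, and Phe at 0.13, 0.23 and 0.01. Their means were 0.26 ± 0.17 for Thr, 0.20 ± 0.20 for Asn, 0.16 ± 0.19 for Ile, 0.12 ± 0.11 for Phe and -0.14 ± 0.11 for Lys (SD, n = 3). None of them differed from 0 in the fit (limma, lowest adjusted p over all 20 amino acids = 0.83).

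The highest mean ratios were those of Met, His and Glu. Met stood at 1.08, -0.15 and 0.58 (mean 0.50 ± 0.62, SD, n = 3) and His at 0.71, -0.11 and 0.68 (mean 0.43 ± 0.46). Glu stood at 0.63, -0.66 and 1.17 (mean 0.38 ± 0.94). All 3 were high on replicates 1 and 3 and below the median probe on replicate 2, where they ranked 13, 12 and 18. The lowest means were those of Val, Lys and Leu. Val stood at -0.05, 0.16 and -0.60 (mean -0.16 ± 0.39) and Leu at -0.13, 0.17 and -0.42 (mean -0.13 ± 0.30), so that both were above 0 on replicate 2 alone. Prefix m probes made up 50% of the probes of Met, His and Glu each, but 25%, 33.3% and 20% of those of Val, Lys and Leu.

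No amino acid passed the test. Of 20 amino acids, 0 were higher and 0 lower (limma intercept with Benjamini-Hochberg adjustment, 0% called in each direction), and 0 had an unadjusted p under 0.05 in either direction. Standard errors lay between 0.22 and 0.29, as large as most of the means. Of the 64 probes, 0 were called in either direction (0%), with 11 higher and 1 lower at an unadjusted p under 0.05 and a lowest adjusted p of 0.13. These counts rested on replicate 2 as well. Without it, Arg, Asp, Cys, Glu, His, Met and Tyr were called higher (7 of 20, limma, n = 2 arrays), with means from 0.49 for Arg to 0.90 for Glu and adjusted p from 0.0013 to 0.037, and 15 probes were called higher and 4 lower. With its sign turned, a choice made after seeing the data, these 7 amino acids and 9 probes were called higher. Both without replicate 2 and with its sign turned, the calls of amino acids rest on the spread pooled over all 20. With 3 arrays an exact two-sided sign-flip test cannot go below p = 0.25 for a single value.

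**Figure D2:**
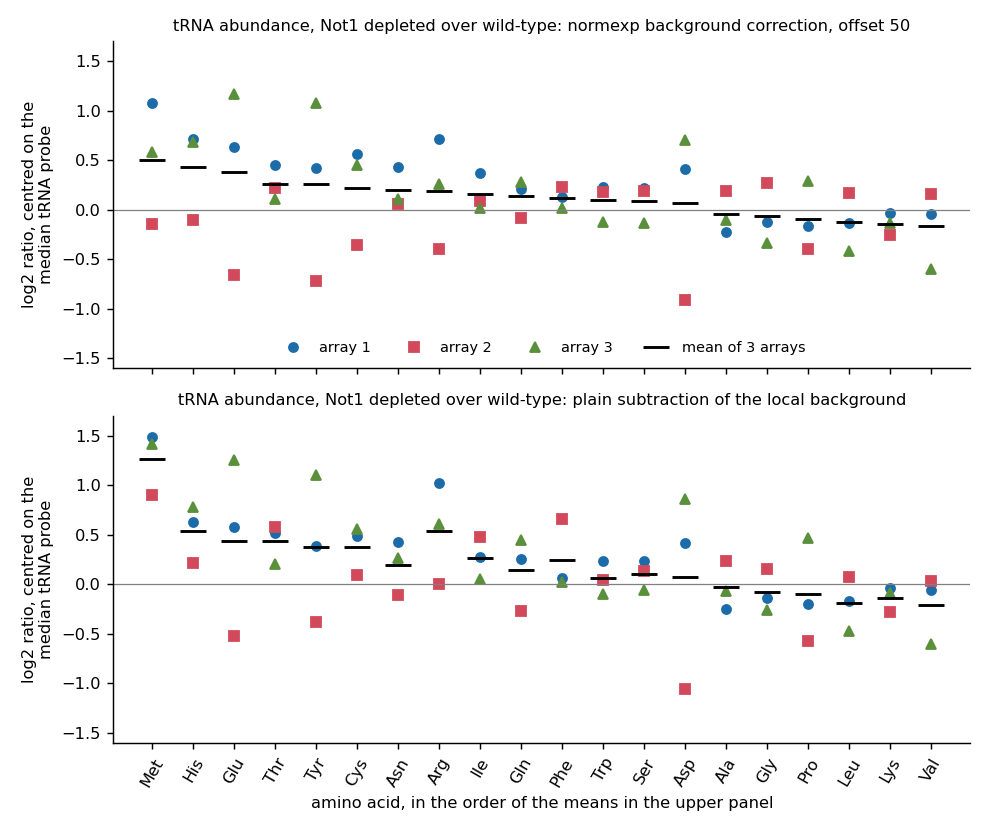
Centred log2 ratio of Not1 depleted over wild-type (vertical axis) for each amino acid (horizontal axis, in the order of the means with the normexp correction), with 1 point per array and a bar at the mean of 3 arrays, after normexp correction (top) and plain subtraction (bottom). Replicate 2 lies below the other arrays for Glu, Tyr and Asp in both panels, at -0.66, -0.72 and -0.91 in the upper panel, and Met moves above 0 on all 3 arrays in the lower panel.

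The study asked about serine, and alanine is given beside it as the amino acid to which the paper relates serine metabolism. Ser stood at 0.22, 0.19 and -0.13 (mean 0.09 ± 0.20, SD, n = 3), with ranks 12, 4 and 16, and Ala at -0.23, 0.19 and -0.10 (mean -0.05 ± 0.21), with ranks 20, 5 and 14. The replicates of both amino acids spanned 0, and neither was called (limma, adjusted p = 0.83 for Ser and 0.84 for Ala). The paper reported a slight, not significant decrease of tRNA-Ser, on arrays scaled to spiked standards. These values are relative to the median probe, so their sign cannot be set against it. Scaled to the standards, which shifts all means by -0.81, Ser was -0.72 (limma, adjusted p = 0.34). Among the 5 Ser probes, Ser3y was below the median probe on all 3 arrays, at -0.57, -0.32 and -0.46, and so was Ser1y at -0.12, -0.03 and -0.59. Ser2y went both ways, at 0.17, 0.74 and -0.44. The probes mSer1y (0.90, 0.25 and 0.69) and mSer2y (0.71, 0.31 and 0.12) were above it on all 3. The mean for Ser was thus an average over probes of opposite sign. Of the Ala probes, Ala1y stood at -0.35, -0.11 and 0.39, Ala2y at -0.57, 0.18 and -0.71, and mAla1y at 0.24, 0.50 and 0.02. None of these 8 probes was called (limma, adjusted p from 0.25 to 0.93).

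Within amino acids, the probes with prefix m stood above the others. Their mean exceeded that of the other probes of the same amino acid for 20, 16 and 16 of 20 amino acids on replicates 1, 2 and 3, and for 12 of 20 on all 3 arrays. Over all probes, the 24 with prefix m had medians of 0.93, 0.21 and 0.73, against -0.25, -0.07 and -0.45 for the other 40. They were above 0 in 24, 15 and 23 of 24 cases, and the others in 8, 17 and 9 of 40. On all 3 arrays together, 14 of 24 were above 0 and 0 below it, against 0 above and 12 below of the other 40. The probes with prefix m were also dimmer: their median log2 Atto intensity was 9.35, 6.99 and 8.53, against 13.1, 11.1 and 11.1. Whether their ratios come from the tRNAs, the dye or the low intensity was not tested. Leaving them out left 0 amino acids with a kept rank, and Met then stood at 0.05, 0.06 and -0.10.

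The 3 highest probe means were all with prefix m. mMet2y stood at 2.33, -0.36 and 1.82, mMet1y at 2.38, -0.22 and 1.58, and mArg2y at 1.98, -0.15 and 1.61. They stood above every probe without the prefix on replicates 1 and 3 and below the median probe on replicate 2. Their lit spots, meaning those above the background, were fewer on replicates 2 and 3 than on replicate 1: 18, 10 and 4 of 18 for mMet2y, 13, 7 and 1 for mMet1y, and 18, 16 and 7 for mArg2y. The 3 lowest means were those of Pro2y (-0.90, -0.50 and -0.71), Lys1y (-0.58, -0.07 and -0.97) and Pro1y (-0.70, -0.52 and -0.24), all below the median probe on each array. The Pro probes were the steadiest of these, with a mean of -0.71 ± 0.20 (SD, n = 3) for Pro2y, but they were not called either (limma, adjusted p = 0.21 for Pro2y).

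The kept rank of Ile and Lys did not extend to their probes. Ile1y stood at -0.16, 0.14 and -0.44 and mIle1y at 1.27, -0.01 and 0.92. Lys1y was below the median probe throughout, mLys1y above it at 0.50, 0.47 and 0.26, and Lys2y, named after its values were seen, stood at 0.00, -1.18 and 0.30. His1y stayed near 0 at 0.15, -0.07 and 0.27 while mHis1y stood at 1.27, -0.14 and 1.10. Val1y was below the median on all 3 arrays, at -0.45, -0.33 and -0.54, and mVal1y at 0.63, 0.85 and -0.86. Leu1y stood at -0.38, 0.13 and -0.85 and mLeu1y at 0.54, 0.57 and 0.08. Over all 20 amino acids, the lowest and the highest probe mean had opposite signs for 18, so that most values per amino acid averaged probes on both sides of the median.

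Glu, Tyr and Asp swung most between arrays. Tyr and Asp fell outside the rule for named amino acids and are given because of their values. Tyr stood at 0.42, -0.72 and 1.08 and Asp at 0.41, -0.91 and 0.71, ranks 8, 19 and 2 for Tyr and 9, 20 and 3 for Asp. The swing lay in the probes without the prefix: Glu1y stood at 0.44, -1.45 and 1.57, Tyr1y at -0.14, -1.61 and 1.52, and Asp1y at 0.37, -1.97 and 1.13. The probes mGlu1y (0.82, 0.13 and 0.78) and mTyr1y (0.97, 0.17 and 0.64) were instead above 0 on each array. Asp1y, Asp2y, Glu1y and Tyr1y were among the brightest probes on replicates 2 and 3, and on replicate 1 except for Asp1y, with no spot saturated in Cy3 on any array and none in Atto on replicate 3. In Atto, 16 of 18 Tyr1y spots and 15 of 24 Asp2y spots were saturated on replicate 1, and 14 of 18 Asp1y spots on replicate 2. Without the spots saturated in Atto, Asp1y stood at 0.58, -1.89 and 1.13 and Tyr1y at -0.07, -1.61 and 1.52. Of these values, that of Tyr1y on replicate 1 and that of Asp1y on replicate 2 rest on few spots. The label Asp2y is doubtful for 6 of its 24 spots, which were left as named, and leaving them out changed neither the amino acids that kept their rank nor their number.

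After a loess trend of ratio on intensity was removed from each array, Glu stood at 0.11, -0.18 and 0.39 and Tyr at 0.01, -0.14 and 0.09. The same step left Asn as the only amino acid with a kept rank, at 0.46, 0.20 and 0.54 with ranks 2, 2 and 1, and Asn was then called higher (limma, adjusted p = 0.044). In that fit every amino acid had the same standard error, 0.12, so the call drew on the pooled spread and not on the spread of Asn itself. Across the 64 probes, Spearman's rho of the ratio with brightness was -0.63, -0.41 and -0.25 on the 3 arrays. Across the 40 probes without the prefix it was 0.07, -0.54 and 0.26, a different sign on replicate 2 than on the others. Whether brightness or the tRNA sets these ratios was not tested.

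**Figure D3:**
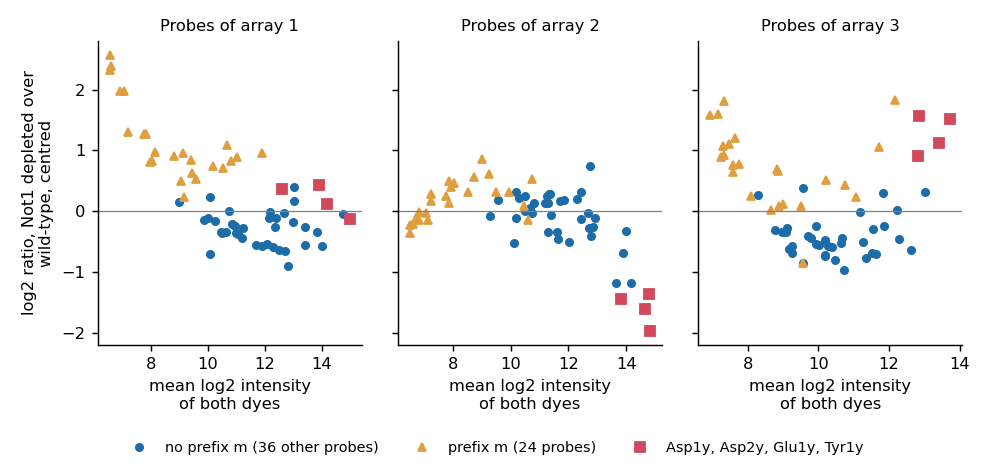
Centred log2 ratio of each of the 64 probes (vertical axis) against its mean log2 intensity over both dyes (horizontal axis), 1 panel per abundance array, with the 24 probes with prefix m as triangles, Asp1y, Asp2y, Glu1y and Tyr1y as squares and the other 36 probes as circles. The triangles lie at the dim end and mostly above 0 on replicates 1 and 3, and the squares lie low on replicate 2, from -1.97 to -1.36, and high on replicate 3, from 0.91 to 1.57.

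Which amino acids kept their rank depended on the background correction. An offset of 50 in both dyes moves the ratio of a dim spot toward 0 before centring, and that point lies at 1.69, -1.41 and 0.59 after centring on replicates 1, 2 and 3. With plain subtraction of the background in its place, Met ranked first on all 3 arrays, at 1.49, 0.90 and 1.42, with a mean of 1.27 ± 0.32 (SD, n = 3). Met was then called higher (limma, adjusted p = 2.7e-04), 1 of 20 amino acids (5% called). In that fit, too, every amino acid had the same standard error, 0.26, pooled over all 20. Met, His, Cys and Lys kept their rank within 3 places, 8 amino acids had the same sign on all arrays (Arg, Cys, His, Ile, Met, Phe and Thr above 0 and Lys below it), and W was 0.47. His stood at 0.63, 0.22 and 0.78 and Cys at 0.49, 0.10 and 0.56. Ile, at 0.28, 0.48 and 0.06, was above 0 on all 3 arrays but moved by 8 places. Of the 17 settings compared, Lys kept its rank in 10, Ile in 6 and Asn in 5. Scaling to the standards and centring on the probes without prefix m are among the 17 and shift all values of an array alike. They cannot change a rank, and they add to the counts of Lys and Ile.

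With plain subtraction 10 of 64 probes were called higher (15.6%) and 1 lower (1.56%), and all 10 carried the prefix m. The highest were mMet1y at 3.31, 2.21 and 3.19 and mMet2y at 3.26, 1.84 and 3.34. The values of mMet1y and mMet2y on replicate 3 rested on 1 and 4 lit spots. mArg2y, mThr1y, mIle1y, mCys1y, mHis1y, mThr2y, mSer1y and mGlu1y followed, with means from 2.08 to 0.67. Of these, mThr1y had 7, 12 and 3 lit spots on replicates 1, 2 and 3, and mArg2y had 7 on replicate 3. Plain subtraction also leaves out spots whose foreground does not exceed the background in at least 1 dye. The one called lower was Pro2y, at -0.86, -0.71 and -0.56 (mean -0.71, limma, adjusted p = 0.0497). The probes with prefix m exceeded the others of their amino acid for 20, 20 and 16 of 20 amino acids, and for Asp, Glu, Tyr and Val this failed on replicate 3. The probes Met1h and Met2h did not share the high ratios of mMet1y and mMet2y, at -0.60, 0.11 and -0.73 for Met1h. Without the prefix m probes, plain subtraction gave no kept rank and a mean of -0.016 for Met.

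Groups of amino acids were described by counts and medians beside those of all 20, whose medians were 0.30, -0.01 and 0.11 on the 3 arrays. The 6 amino acids read from 2-codon boxes ending in a pyrimidine (Asn, Asp, Cys, His, Phe and Tyr) had medians of 0.43, -0.23 and 0.57, with 2 of 6 above 0 on all arrays. The branched chain amino acids Ile, Leu and Val had medians of -0.05, 0.16 and -0.42, and Ile alone had the same sign on all arrays. Ser and the amino acids made from it, Cys and Gly, had medians of 0.22, 0.19 and -0.13, and 0 of 3 had the same sign on all arrays. Amino acids of class I aminoacyl-tRNA synthetases, the enzymes that charge tRNAs, had medians of 0.40, -0.11 and 0.27, and those of class II 0.17, 0.13 and 0.06. The groups also differed in their share of prefix m probes. It was 50% for Asn, Cys, His, Phe and Tyr and 33.3% for Asp, against 33.3% for Ile, 25% for Val and 20% for Leu. Across all 20 amino acids, Spearman's rho of the ratio with this share was 0.60, -0.19 and 0.60 on the 3 arrays. Whether the medians follow the groups or this share was not tested.

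The Atto dye of the charging arrays measured total tRNA in both strains with the same dye, on arrays that carried 1 strain each. There, 0 of 20 amino acids were called higher or lower in Not1 depleted cells (limma, 3 against 3 arrays, 0% called, adjusted p from 0.89 to 0.99), 0 had an unadjusted p under 0.05, and the 2 groups overlapped for each of the 20. Standard errors lay between 0.23 and 0.46. Met, the highest on the abundance arrays, had centred log2 Atto levels of -1.12, -1.12 and -0.88 after Not1 depletion against -1.18, -0.90 and -1.22 for the wild-type, a difference of 0.06. Lys stood at -0.13, 0.11 and 0.75 against 0.29, 0.49 and 0.46, a difference of -0.17. Ile differed by -0.05 and Ser by 0.15. The differences of largest size were those of Trp (0.51), Asn (0.44) and Phe (0.41), none of which was called. On replicate 1 of the wild-type, 38 of 108 blank spots were lit, against 0 to 11 on the other charging arrays.

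**Figure D4:**
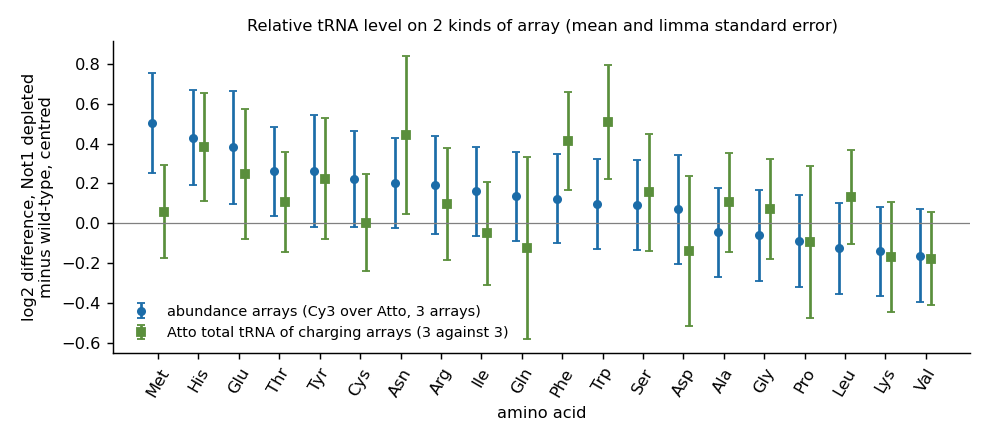
Log2 difference between Not1 depleted and wild-type cells (vertical axis) for each amino acid (horizontal axis), as the mean ratio of 3 abundance arrays (circles) and as the difference in centred Atto total tRNA between 3 charging arrays of each strain (squares), with bars for the standard error of the limma fit. No amino acid was called on either kind of array, and Met stands at 0.50 on the abundance arrays and at 0.06 on the charging arrays.

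Of the 1032 spots under the 64 tRNA probes, 95.3%, 92.3% and 86.7% were lit on abundance replicates 1, 2 and 3, and 2, 3 and 0 of 108 blank spots were. The median Atto foreground was 3383.5, 810 and 1071 and the median Cy3 foreground 948, 2380 and 673, so that replicate 2 alone was brighter in Cy3. The ratio of the median tRNA probe before centring was -1.69, 1.41 and -0.59, and that of the spiked standards 0.17, 1.39 and -0.0089. Scaled to the standards in place of the median probe, all values shift by -1.86, 0.016 and -0.58, or -0.81 on average, with no change in rank.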

How the data were processed

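The deposited values were raw scanner output, that is, the median foreground and local background intensity of each spot in both dyes. The authors normalized arrays to 4 pmol of each spiked tRNA standard in 2 µg of total RNA with scripts of their own, a step that is not in these values. Each array had 12 blocks of 11 rows and 11 columns. Names in block rows 5 to 8 were moved down by 1 row, because spots of one name then came together (mean SD between positions 0.090, against 0.41 as deposited). Row 5 (132 spots) then had no name and was not used. Blanks, markers and standards were left out. Spots with under 50% of pixels above the background by 2 SD in both dyes were called empty and dropped. Intensities were corrected with normexp (offset 50, limma 3.58.1, R 4.3.3), and log2 ratios of Cy3 over Atto were averaged over the 6 to 24 spots of a probe, centred on the median probe and averaged by amino acid. An intercept was fitted with lmFit and eBayes (Benjamini-Hochberg adjusted p of 0.05), after a test on simulated data. The fit takes no account of probes of 1 array moving together. With plain subtraction, an offset of 0, loess, replicate 2 left out or its sign turned, limma gave every amino acid the same standard error. Calls of amino acids under these settings therefore rest on the pooled spread. The total channel of the charging arrays was compared between strains in the same way.

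The members, lists and tests were chosen with earlier results of these data known. Amino acids were named where the rank spanned at most 3 places, for the 3 highest and the 3 lowest means, and for Ser and Ala. Probes were named for the 3 highest and the 3 lowest means, for Ser and Ala, and for the highest and lowest of each other named amino acid. No 2 arrays shared values in more than 0.41% of spots. Arrays have no read depth, and their number limits the precision. Alternatives were other background corrections, foreground means, other centring, loess, medians in place of means, leaving out probes with prefix m, dim probes, saturated or doubtful spots, keeping empty spots, the deposited names, each replicate left out, an intensity trend, and other limits on places. Plain subtraction without prefix m, leaving out Met1h and Met2h, and turning the sign of replicate 2 were added after seeing the data. Replicate numbers were shared between the charging groups, but same-numbered arrays did not deviate together (r = -0.50, 0.039 and -0.45 over the amino acids). Figures were drawn with matplotlib under Python.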

Additional observations from a re-analysis of the deposited data

Results flagged for a closer look

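The spots of block row 5, which kept no name after the names were moved and entered no comparison, carried signal. On abundance replicate 1, 122 of these 132 spots were brighter in Atto than the 95th percentile of the blank spots of the same array. On replicate 2 there were 119 such spots and on replicate 3 there were 117. What they hold is not given in the sources used here.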

How the results depend on the processing

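Relative values from 3 arrays without a dye swap limit these results, and dim probes rest on few lit spots. Each abundance array pairs the strains within the array, so the intercept fit is itself paired. For the total channel, the replicate block gave 0 higher and 0 lower of 20 amino acids, as did all other settings tried. Most dependence lay in the background correction, the probes with prefix m and replicate 2. Calls and ranks changed as follows.

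With plain subtraction, 10 probes were higher and 1 lower, 1 amino acid was higher, 4 kept their rank and 8 their direction. With a normexp offset of 0, 10 probes were higher and 1 lower, and 1 amino acid was higher. With loess, 1 amino acid was higher and 1 kept its rank. An intensity trend in the prior gave 1 probe lower. The number with a kept rank was 0 with the median over probes, without prefix m (with either background correction), without dim probes and with a limit of 2 places, 1 with the names as deposited or without Met1h and Met2h, and 4 with a limit of 5 places. The number with a shared direction was 3 with no background correction, with the mean foreground, with the median over probes and with plain subtraction without prefix m, and 9 when centred on the probes without prefix m. With the sign of replicate 2 turned, 9 probes and 7 amino acids were higher, 4 kept their rank, 12 their direction, and W was 0.74.

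With each abundance replicate left out in turn, 0 to 15 probes were higher and 0 to 4 lower, 0 to 7 amino acids were higher, 4 to 8 kept their rank, 5 to 17 their direction, and W ranged from 0.13 to 0.83. The highest count of each came without replicate 2. The mean changed sign for Ala (-0.16 to 0.044), Arg (-0.068 to 0.49), Asp (-0.25 to 0.56), Glu (-0.015 to 0.90), Gly (-0.23 to 0.075), Leu (-0.28 to 0.019), Pro (-0.28 to 0.063), Tyr (-0.15 to 0.75), Val (-0.32 to 0.055), Ala1y (-0.23 to 0.14), Glu1y (-0.50 to 1.01), Ser2y (-0.13 to 0.46) and mVal1y (-0.11 to 0.74).

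Other settings turned the sign of means, among them the 2 highest, Met without dim probes and His with loess, and the cause was not tested beyond the shift each setting makes. Centred on the probes without prefix m, Ala became 0.21, Gly 0.19, Leu 0.13, Lys 0.11, Pro 0.17, Val 0.093, Ala1y 0.23, Ile1y 0.10 and Ser1y 0.011. Without dim probes, which left 51 of 64, Ala became 0.086, Arg -0.15, Cys -0.15, Gly 0.070, Leu 0.0058, Met -0.12, Phe -0.24, Pro 0.043 and Ala1y 0.11. With loess, Cys became -0.055, Gly 0.026, His -0.12, Ile -0.036, Phe -0.069, Tyr -0.014, Ala1y 0.067, His1y -0.29, Ser1y 0.049, Ser3y 0.017, mAla1y -0.0014 and mGlu1y -0.046. With the median over probes, Arg became -0.0085, Asp -0.029, Ile -0.091, Lys 0.063, Ser -0.0048 and Thr -0.041. With the median over spots, Ala1y became 0.014. With the names as deposited, Arg became -0.12, Pro 0.16, Ser2y -0.18 and Val1y 0.35. Without prefix m, Ala became 0.060, Arg -0.026, Cys -0.025, Gln -0.18, Phe -0.11, Trp -0.077, Ala1y 0.23, Ile1y 0.10 and Ser1y 0.011. With plain subtraction as well, Ala was 0.075, Gln -0.14, Met -0.016, Phe -0.11, Trp -0.13, Ala1y 0.26, Ile1y 0.055 and Ser1y 0.022. Scaled to the standards, where all means shift by -0.81, Arg became -0.62, Asn -0.61, Asp -0.74, Cys -0.59, Gln -0.67, Glu -0.43, His -0.38, Ile -0.65, Met -0.31, Phe -0.69, Ser -0.72, Thr -0.55, Trp -0.71, Tyr -0.55, Glu1y -0.62, His1y -0.69, Ser2y -0.65, mAla1y -0.56, mGlu1y -0.23, mHis1y -0.064, mIle1y -0.083, mLeu1y -0.41, mLys1y -0.40, mSer1y -0.19, mSer2y -0.43 and mVal1y -0.60. For single amino acids and named probes, 753 of the other values kept direction and side of the threshold and 34 passed it.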
